A study of Oryza sativa with 4 samples.

Results

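The SAPK kinases of rice are the 10 genes SAPK1 to SAPK10, the SnRK2 family of plant protein kinases. They were taken by gene identifier from the RAP-DB annotation, with every annotated transcript kept. The family comprised 15 of the 37972 transcripts and 10 of the 31414 genes in the table. The rule used gene identifiers alone. All 10 names were also listed for a gene on the same chromosome in the RefSeq gene list of rice (assembly ASM3414082v1).

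RNA sequencing was performed with whole 3-week-old plants of the cultivar Nakdong, grown without any stress or hormone treatment, to find genes affected by overexpression of a CCCH zinc finger protein. The control group was non-transgenic (NT). The other group, OsC3H10OX, carried the gene under the PGD1 promoter, which drives expression in the whole plant. Labels name the transgene PGD1::OsTZF8 and the study calls the gene OsC3H10. All OsC3H10OX RNA came from 1 transgenic line (line 20, T4 generation), so the line and the transgene cannot be told apart. Each group had 2 libraries that the study describes as biological replicates. OsC3H10 itself was not analysed here, and the labels were therefore not checked against the overexpressed gene.

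SnRK2 kinases are switched on by osmotic stress, and part of the family also by the stress hormone abscisic acid (ABA). Without ABA, clade A protein phosphatases (PP2C) keep the ABA-responsive kinases inactive. When ABA binds its PYR/PYL/RCAR receptors, the receptors hold back the phosphatases, and the freed kinases phosphorylate group A bZIP transcription factors that switch on ABA-induced genes. Rice SnRK2 kinases form 3 subclasses: subclass I (SAPK4 to SAPK7), subclass II (SAPK1, SAPK2, SAPK3) and subclass III (SAPK8, SAPK9, SAPK10). Osmotic stress activates members of all subclasses, and ABA most strongly those of subclass III. Their activity is set largely by phosphorylation of the protein, which RNA levels do not show.

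FPKM, the unit of the levels below, gives fragments per kilobase of transcript, scaled to the mapped total of the library. Log2 fold changes compare OsC3H10OX with NT on the study's log2 values, which are log2(FPKM + 1) after quantile normalization and understate changes of transcripts near 1 FPKM. Depth inferred from the steps of low FPKM values was 35880000 and 55620000 fragments in NT and 40040000 and 36840000 in OsC3H10OX. At these depths the tested SAPK transcripts rested on 114 to 6797 fragments per library. At least 1 FPKM was reached by 29644 to 29992 transcripts per library. Pearson's r over all tested transcripts was 0.971 within NT, 0.972 within OsC3H10OX and 0.931 to 0.962 between them. Summed Rubisco small subunit and light-harvesting protein transcripts (8 of 9 tested, 7 with a positive log2 fold change, 1 listed at 0 in all libraries) spanned 10440 to 11005 FPKM in NT and 13701 to 15506 FPKM in OsC3H10OX. The 4 root marker genes summed to 642 and 650 FPKM in NT and to 530 and 557 FPKM in OsC3H10OX, where RCc3 alone of the 4 had a negative log2 fold change and none was at 0. None of the 4 root genes and 1 of the 8 tested shoot transcripts was called. The part of these shoot transcripts and of RCc3 in the results below was not tested. In whole plants, fewer cells of a type and less RNA per cell cannot be told apart.

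Every SAPK gene was transcribed in unstressed plants, and the levels spanned 12.6-fold. FPKM summed per gene and averaged over the 4 libraries put SAPK4 first with 119.99. It was followed by SAPK2 (87.4), SAPK8 (79.1), SAPK9 (48.5), SAPK5 (41.9), SAPK3 (37.2), SAPK6 (31.8), SAPK7 (23.5), SAPK1 (12.8) and SAPK10 (9.51). Even SAPK10 stood above 57.7% of all genes in the table, and SAPK4 stood above 97.0%. Ranges over the 4 libraries overlapped for the neighbours SAPK2 and SAPK8, SAPK9 and SAPK5, SAPK5 and SAPK3, and SAPK3 and SAPK6. They did not overlap for the other neighbours in this order. High and low members stood in each subclass, with SAPK4 and SAPK7 in subclass I, SAPK2 and SAPK1 in subclass II and SAPK8 and SAPK10 in subclass III.

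**Figure D1:**
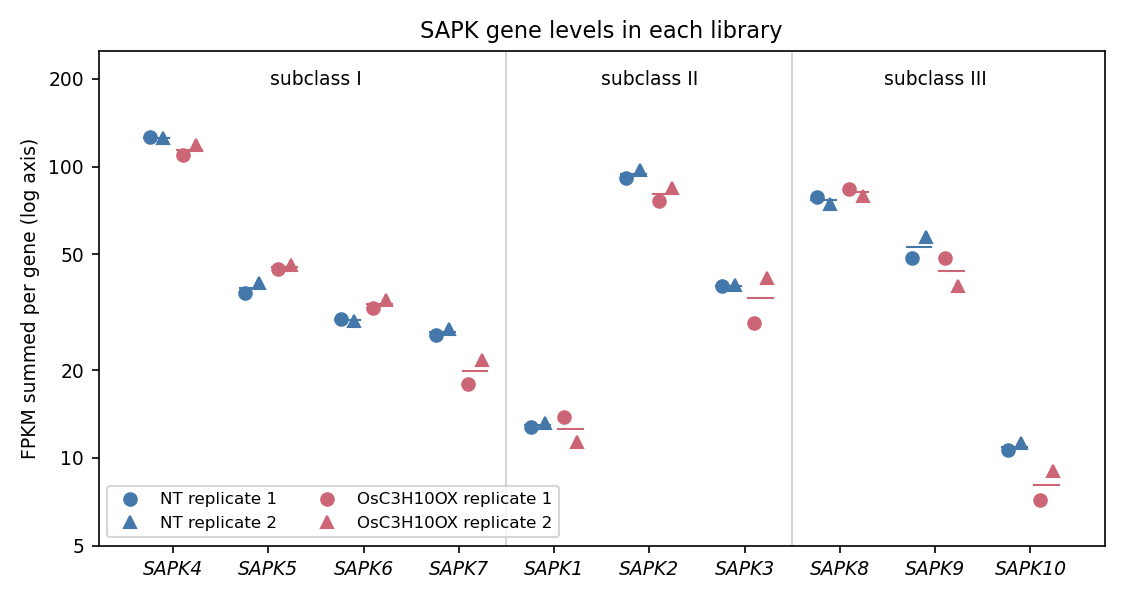
FPKM summed per gene (log axis) for the 10 SAPK genes, grouped by subclass. Circles and triangles are replicates 1 and 2 of NT (blue) and OsC3H10OX (red), and lines are group means (n = 2). SAPK5, SAPK6 and SAPK8 sit higher in both OsC3H10OX libraries, and SAPK2, SAPK4, SAPK7, SAPK9 and SAPK10 sit lower, each by far less than the 12.6-fold span of the family.

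No SAPK transcript passed the test between OsC3H10OX and NT. Of the 15 transcripts, 13 reached 1 FPKM in at least 2 libraries and were tested, and 0 of 13 were called at an adjusted p under 0.05 (limma, Benjamini-Hochberg over 30449 transcripts), against 1.49% of all tested transcripts (0.647% higher, 0.841% lower). Adjusted p ranged from 0.228 to 0.943. At an unadjusted p under 0.05, 2 were higher and 1 was lower, and 17.7% of all tested transcripts passed that threshold. The log2 fold changes lay between -0.40 and 0.41, with 5 above and 8 below 0 and a median of -0.14, beside 0.0017 over all tested transcripts. The family median lay between -0.12 and -0.068 when 1 library was left out. The 95% interval of all 13 lay within 2-fold in either direction, so that a doubling or a halving lies outside the interval of every tested SAPK transcript. No tested SAPK transcript and 4.03% of all tested transcripts reached 2-fold. The median size of the log2 fold change, ignoring its sign, was 0.23 for the family and 0.18 over all tested transcripts.

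In FPKM, the 2 groups did not overlap for 9 of the 13, of which 4 were higher and 5 lower in OsC3H10OX. Among all tested transcripts 53.2% did not overlap in FPKM (25.1% higher, 28.1% lower). On the normalized log2 values used for the test SAPK9, one of the lower transcripts, did overlap, with 5.62 in NT replicate 1 and 5.66 in OsC3H10OX replicate 1. Replicates lay closer in NT than in OsC3H10OX. The median gap between replicates was 0.0639 on the log2 scale in NT and 0.165 in OsC3H10OX for the tested SAPK transcripts, beside 0.116 and 0.173 over all tested transcripts, and the gap was wider in OsC3H10OX for 9 of 13.

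**Figure D2:**
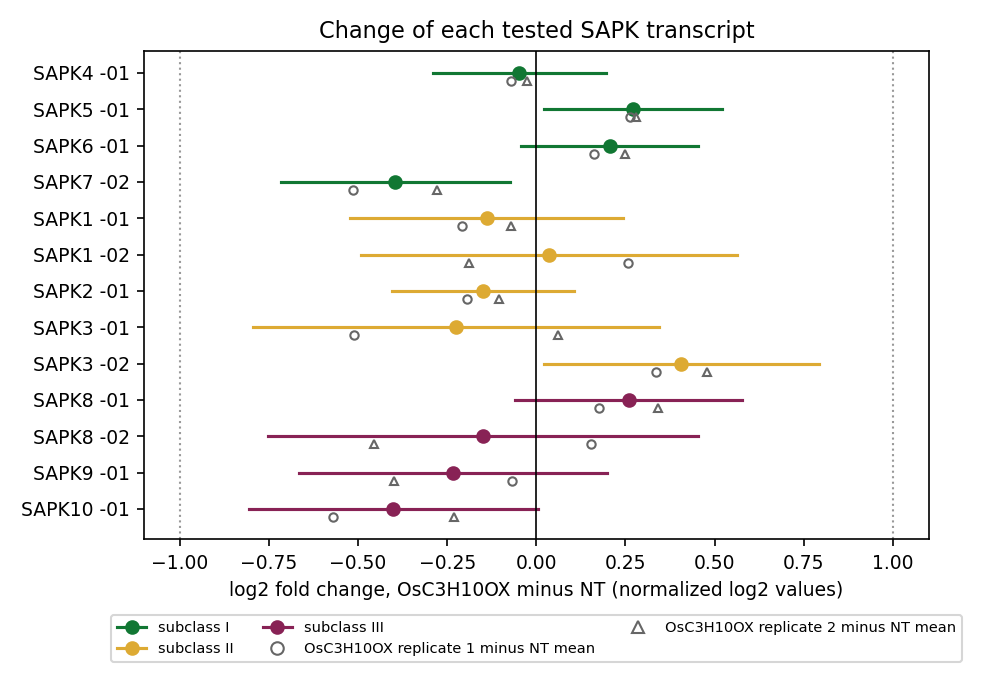
Log2 fold change (OsC3H10OX minus NT) of the 13 tested SAPK transcripts, with the limma estimate as a filled point, its 95% interval as a bar and the colour giving the subclass. Open symbols are the 2 OsC3H10OX libraries minus the NT mean, and dotted lines mark a 2-fold change. All bars lie inside the dotted lines, and 3 bars (SAPK5, SAPK7 -02 and SAPK3 -02) leave out 0.

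No member of subclass I passed the test, and their log2 fold changes lay on both sides of 0. SAPK5 (Os04g0691100, chromosome 4, 35344337 to 35346212 in IRGSP-1.0) had 36.9 and 39.8 FPKM in NT and 44.7 and 46.0 FPKM in OsC3H10OX. Both OsC3H10OX libraries stood above both NT libraries. Its log2 fold change was 0.27 ± 0.0925 (SE, n = 2 per group), with a 95% interval of 0.02 to 0.52, and adjusted p was 0.256 (limma).

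SAPK6 (Os02g0551100, chromosome 2, 20746334 to 20751320), the next member in numbering and of like level, had 30.0 and 29.4 FPKM in NT and 32.8 and 34.9 FPKM in OsC3H10OX. These groups did not overlap either, and the log2 fold change was 0.21 ± 0.0925 (SE, adjusted p = 0.346, limma). Fragment counts behind SAPK5 and SAPK6 ran from 1548 to 3277 per library, a counting error of 2.54% or less.

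SAPK7 (Os04g0432000) lies on chromosome 4 as well, and its main transcript Os04t0432000-02 spans 21414635 to 21419941. It had 26.1 and 26.8 FPKM in NT and 18.0 and 21.3 FPKM in OsC3H10OX. Both OsC3H10OX libraries were lower than both NT libraries. The log2 fold change was -0.40 ± 0.120 (SE, 95% interval -0.72 to -0.07, adjusted p = 0.228, limma). Its other transcript, Os04t0432000-01, had 0.454 and 0.872 FPKM in NT and 2.88e-05 and 0.364 FPKM in OsC3H10OX, was not tested, and rested on 16, 49, 0 and 13 inferred fragments.

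Within each library, SAPK5 was 1.39 and 1.44 times SAPK7 in NT and 2.49 and 2.12 times SAPK7 in OsC3H10OX. The ratio did not overlap between groups, and the exact two-sided permutation test gave p = 0.333, the smallest p that 2 libraries against 2 allow. This pair was chosen after its values were seen.

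SAPK4 (Os01g0869900), the most abundant member, is carried by transcript Os01t0869900-01 (chromosome 1, 37711972 to 37714881). It had 126 and 125 FPKM in NT and 110 and 119 FPKM in OsC3H10OX. The FPKM of both OsC3H10OX libraries were lower, but on the normalized log2 scale the difference was only -0.05 ± 0.0903 (SE, adjusted p = 0.809, limma), and it was -0.13 without normalization. The transcript shares 26 bases with a neighbouring cation channel gene, Os01g0870100, which had 0.935 to 1.58 FPKM. The short second transcript, Os01t0869900-02 (271 nt), had an inferred 0 fragments in all libraries. By counting error alone (3 fragments), that allows up to 0.721 and 0.465 FPKM in NT replicates 1 and 2. For OsC3H10OX replicates 1 and 2 the limits are 0.646 and 0.702 FPKM. This short transcript lies within the span of the main one. Reads that both share are divided by estimate, and these limits do not cover that division.

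Subclass II was led by SAPK2 (Os07g0622000, chromosome 7, 25717836 to 25722009). It had 91.6 and 97.1 FPKM in NT and 76.5 and 84.5 FPKM in OsC3H10OX. The groups did not overlap, yet the log2 fold change was only -0.15 ± 0.0949 (SE, adjusted p = 0.466, limma). With 3853 to 6797 fragments per library, counting error was at most 1.61%, under the gaps between its replicates.

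SAPK3 (Os10g0564500, chromosome 10) has 2 tested transcripts, neither of which passed. The main one, Os10t0564500-01 (22294895 to 22297645), had 35.9 and 35.2 FPKM in NT and 24.1 and 36.4 FPKM in OsC3H10OX. Only OsC3H10OX replicate 1 was low, so the groups overlapped (log2 fold change -0.23 ± 0.212 SE, adjusted p = 0.613, limma), and the sign changed to 0.060 without that library.

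The minor transcript of SAPK3, Os10t0564500-02 (22294756 to 22297191), had 3.07 and 4.05 FPKM in NT and 4.86 and 5.18 FPKM in OsC3H10OX. Both OsC3H10OX libraries were higher, and the log2 fold change of 0.41 ± 0.143 (SE, 95% interval 0.02 to 0.79, adjusted p = 0.265, limma) was the largest positive one of the family. It was also the least covered tested transcript, with 114 to 233 fragments per library and a counting error of 6.55% to 9.37%.

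SAPK1 (Os03g0390200, chromosome 3) was the lowest member of subclass II. Os03t0390200-01 (15628108 to 15632425) had 6.44 and 5.40 FPKM in NT and 5.13 and 5.44 FPKM in OsC3H10OX. Os03t0390200-02 (15628349 to 15632384) had 6.33 and 7.78 FPKM in NT and 8.70 and 5.91 FPKM in OsC3H10OX. The groups overlapped for both transcripts, with log2 fold changes of -0.14 and 0.03 and adjusted p of 0.641 and 0.943 (limma). Leaving out 1 library moved them from -0.27 (without NT replicate 2) to -0.013 (without NT replicate 1) and from -0.19 (without OsC3H10OX replicate 1) to 0.26 (without OsC3H10OX replicate 2).

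Subclass III, the kinases most responsive to ABA, showed no common direction. SAPK8 (Os03g0764800, chromosome 3) was its most abundant member, and Os03t0764800-01 (31654823 to 31658145) had 50.2 and 44.5 FPKM in NT and 51.5 and 58.8 FPKM in OsC3H10OX. These groups did not overlap (log2 fold change 0.26 ± 0.118 SE, adjusted p = 0.351, limma), and without NT replicate 2 the value was 0.17. Os03t0764800-02 (31655008 to 31658133) had 28.5 and 30.0 FPKM in NT and 32.1 and 20.7 FPKM in OsC3H10OX. Here the 2 OsC3H10OX libraries lay on both sides of NT, and the log2 fold change of -0.15 turned to 0.15 without OsC3H10OX replicate 2.

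SAPK9 (Os12g0586100, chromosome 12, 24459197 to 24462001) had 48.7 and 57.6 FPKM in NT and 48.6 and 39.0 FPKM in OsC3H10OX. NT replicate 1 and OsC3H10OX replicate 1 were nearly equal. Its log2 fold change was -0.23 ± 0.161 (SE, adjusted p = 0.497, limma), and leaving out 1 library moved it between -0.40 (without OsC3H10OX replicate 1) and -0.068 (without OsC3H10OX replicate 2), with -0.12 without NT replicate 2.

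SAPK10 (Os03g0610900, chromosome 3, 23068745 to 23071156), the least abundant of the 10 genes, had 10.7 and 11.2 FPKM in NT and 7.17 and 8.996 FPKM in OsC3H10OX. Both OsC3H10OX libraries were lower than both NT libraries. The log2 fold change was -0.40 ± 0.151 (SE, 95% interval -0.81 to 0.0043, adjusted p = 0.285, limma), and 413 to 898 fragments lay behind each value. Without OsC3H10OX replicate 1 it was -0.23, and without OsC3H10OX replicate 2 it was -0.57.

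Summing FPKM per gene, which depends less on how reads were split between transcripts, also gave no call. In summed FPKM the groups did not overlap for 8 of 10 genes, 3 higher and 5 lower, beside 55.3% of all tested genes. Of the 10 SAPK genes 0 were called, against 2.43% of 25954 tested genes, and adjusted p ranged from 0.189 to 0.910 (limma). At an unadjusted p under 0.05 there were 3 genes (SAPK5, SAPK7 and SAPK10), beside 19.8% of all tested genes. SAPK7 had the largest difference per gene, from 26.5 and 27.7 to 18.0 and 21.7 FPKM (log2 fold change -0.42 ± 0.125 SE, adjusted p = 0.189). SAPK8 summed to 78.7 and 74.5 FPKM in NT and to 83.6 and 79.5 FPKM in OsC3H10OX (a difference of 0.14 on the log2 scale, adjusted p = 0.459).

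At the gene level, 2 members passed only without OsC3H10OX replicate 2. In that fit the SAPK7 gene stood at -0.56 on the log2 scale and the SAPK10 gene at -0.57, beside -0.42 and -0.40 with all libraries. That fit leaves 1 OsC3H10OX library, so its spread came from the NT libraries alone. Its p-values carry no variation within OsC3H10OX, and far more of all genes passed in it as well. Without any other single library 0 of 10 were called. No SAPK transcript was called without any 1 of the 4 libraries.

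FPKM of the 10 SAPK genes summed to 501 and 515 in NT and to 464 and 487 in OsC3H10OX, 0.936 times the NT mean. Both OsC3H10OX sums were below both NT sums (exact two-sided permutation p = 0.333, the smallest possible). As a share of the FPKM of all transcripts the ratio was 0.963, with 0.0666% and 0.0672% in NT and 0.0634% and 0.0655% in OsC3H10OX.

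By subclass, the difference was widest in subclass II, which summed to 143 and 149.5 FPKM in NT and 119 and 137 FPKM in OsC3H10OX. Subclass I summed to 219.5 and 222 FPKM in NT and 205 and 222 FPKM in OsC3H10OX, and subclass III to 138 and 143 and to 139 and 127.5 FPKM. The groups overlapped for subclasses I and III.

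The make-up of the kinase pool was compared as each member's share of the summed SAPK FPKM. Subclass III took 27.6% and 27.8% of the SAPK FPKM in NT and 30.0% and 26.2% in OsC3H10OX. The OsC3H10OX libraries lay on both sides of NT, with a difference of 0.43 percentage points between means (exact two-sided permutation p = 1). SAPK4, SAPK2 and SAPK8 held the largest shares in every library. The share of SAPK5 was 7.37% and 7.73% in NT and 9.64% and 9.45% in OsC3H10OX, and that of SAPK6 was 5.99% and 5.72% against 7.06% and 7.18%. SAPK7 took 5.29% and 5.38% in NT and 3.88% and 4.45% in OsC3H10OX. SAPK10 took 2.13% and 2.18% in NT and 1.54% and 1.85% in OsC3H10OX. None of these 4 shares overlapped between groups (exact two-sided permutation p = 0.333 each). Over the family, 6 of 10 shares did not overlap, 3 higher and 3 lower in OsC3H10OX, with SAPK8 and SAPK2 the other two, and 4 overlapped (SAPK1, SAPK3, SAPK4 and SAPK9). For comparison, summed FPKM did not overlap between the groups for 55.3% of all tested genes.

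Ranks within the family differed among neighbours. SAPK4 ranked 1, SAPK6 ranked 7, SAPK7 ranked 8, SAPK1 ranked 9 and SAPK10 ranked 10 in both groups. By group means SAPK8 (76.6 FPKM in NT, 81.5 in OsC3H10OX) ranked below SAPK2 (94.4 and 80.5) in NT and above it in OsC3H10OX. SAPK5 (38.4 and 45.3) ranked below SAPK9 (53.2 and 43.8) and SAPK3 (39.1 and 35.3) in NT and above both in OsC3H10OX. Single libraries did not all follow this order, since SAPK5 was above SAPK3 in NT replicate 2 and below SAPK9 in OsC3H10OX replicate 1. Within each library SAPK2 was 1.16 and 1.30 times SAPK8 in NT and 0.915 and 1.06 times SAPK8 in OsC3H10OX, so the order of this pair held in only 1 of the 2 OsC3H10OX libraries.

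**Figure D3:**
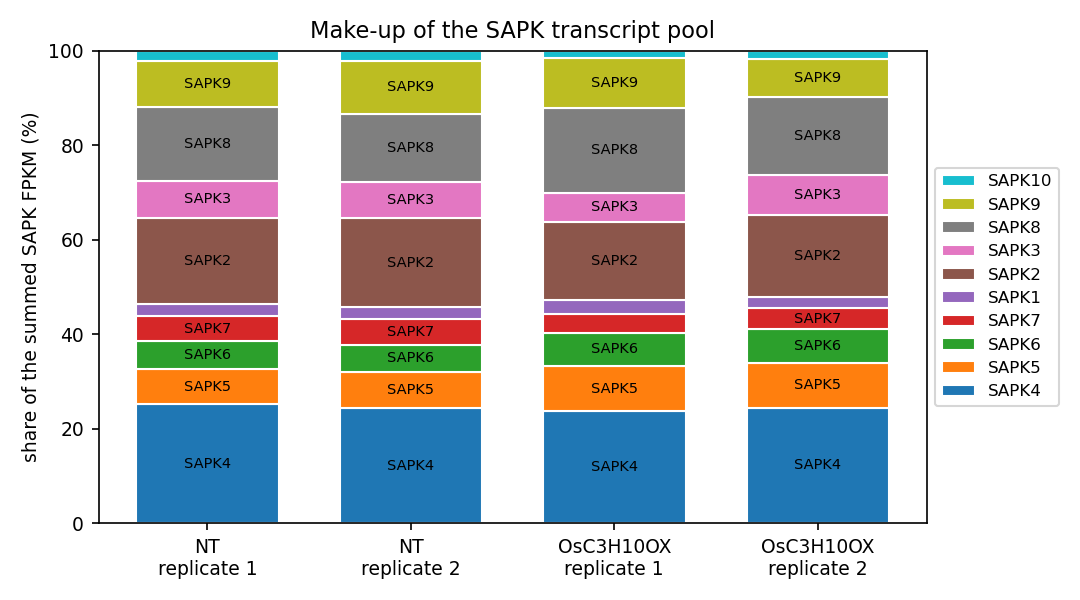
Share of the summed SAPK FPKM (%) taken by each of the 10 genes, as 1 stacked bar per library, ordered by subclass from I at the bottom to III at the top. SAPK5 takes 7.37% and 7.73% in NT and 9.64% and 9.45% in OsC3H10OX, and SAPK4 takes 23.7% to 25.2% of the pool in all 4 libraries.

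The 5 SAPK genes with 2 annotated transcripts used them unequally. By the deposited FPKM, SAPK4 gave all its detectable signal from Os01t0869900-01. SAPK7 gave 98.3% and 96.8% in NT and 100% and 98.3% in OsC3H10OX from Os04t0432000-02. The SAPK7 shares did not overlap at full precision (exact two-sided permutation p = 0.333), with 0 to 49 inferred fragments of its other transcript per library. SAPK1 was split nearly evenly, with 49.6% and 59.0% in NT and 62.9% and 52.1% in OsC3H10OX from Os03t0390200-02. SAPK8 gave 63.8% and 59.7% in NT and 61.6% and 73.9% in OsC3H10OX from Os03t0764800-01. For SAPK1 and SAPK8 the groups overlapped.

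In SAPK3 the main transcript took less of the gene in OsC3H10OX, with 83.2% and 87.5% against 92.1% and 89.7% in NT. These shares did not overlap (difference of -5.51 percentage points between means, exact two-sided permutation p = 0.333). The libraries were single-end, and the division of reads between transcripts that share exons is an estimate.

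**Figure D4:**
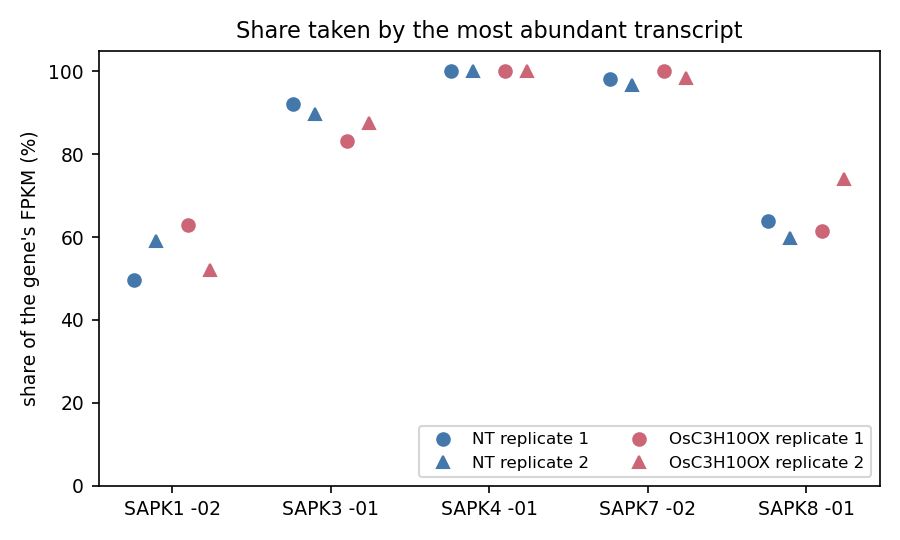
Share of a gene's FPKM (%) taken by its most abundant transcript in the 5 SAPK genes with 2 annotated transcripts. Circles and triangles are replicates 1 and 2 of NT (blue) and OsC3H10OX (red). SAPK3 -01 lies between 83.2% and 92.1%, with both OsC3H10OX libraries below both NT libraries, while SAPK1 and SAPK8 spread as widely within as between groups.

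The other components of ABA signalling were examined in the same fit. Of 44 transcripts in lists of ABA receptors, clade A PP2C, group A bZIP factors, enzymes of ABA synthesis and breakdown and ABA-induced LEA genes, 35 were tested and 0 were called (adjusted p 0.0604 to 0.989, limma), beside 1.49% of all tested transcripts. At an unadjusted p under 0.05, 7 of the 35 were higher and 4 lower, beside 17.7% of all tested transcripts in either direction. A 2-fold difference was reached by 7 of the 35 (20%), beside 4.03% of all. Of these 7, 3 were transcripts of ABA-induced LEA genes, which also gave 3 of the 7 higher at an unadjusted p under 0.05. Several of the LEA genes were picked by the study from these libraries, so these counts are not independent of that choice. With FPKM summed per gene, 1 of 31 tested genes was called, beside 2.43% of all tested genes.

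The receptors, 4 tested, had no unadjusted p under 0.05 and a median log2 fold change of 0.30. The receptor-list gene with the smallest p, Os03g0297600, annotated as a cyclase/dehydrase family protein, had 32.1 and 36.4 FPKM in NT and 68.3 and 38.5 FPKM in OsC3H10OX. Only OsC3H10OX replicate 1 was far above NT (log2 fold change 0.62 ± 0.308 SE, adjusted p = 0.376, limma). The next ones were Os05g0213500 (log2 fold change 0.24), Os06g0562200 (0.36) and Os10g0573400 (-0.03).

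Of 10 tested transcripts of the phosphatases that hold the kinases inactive, 2 were higher and 1 was lower at an unadjusted p under 0.05 (17.7% of all tested transcripts), and the median was -0.13. Os03g0268600 had 4.10 and 4.61 FPKM in NT and 2.35 and 2.78 FPKM in OsC3H10OX. Both OsC3H10OX libraries were lower, with a log2 fold change of -0.60 ± 0.136 (SE, adjusted p = 0.160, limma). The most abundant phosphatase gene, Os01g0583100, had 48.2 and 48.3 FPKM in NT and 36.1 and 47.2 FPKM in OsC3H10OX (a difference of -0.19 on the log2 scale, adjusted p = 0.557). The 2 higher transcripts, Os01t0846300-02 and Os05t0592800-03, were minor forms, each under 3 FPKM in every library.

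Of Os01g0846300 and Os05g0592800 the main transcripts had log2 fold changes of 0.05 and -0.22, and Os01g0656200 had one of -0.33. Summed phosphatase FPKM was 0.223 and 0.202 times summed SAPK FPKM in NT and 0.189 and 0.225 times in OsC3H10OX, so this ratio overlapped between groups. Summed receptor FPKM was 0.249 and 0.262 times summed SAPK FPKM in NT and 0.381 and 0.279 times in OsC3H10OX, and this ratio did not overlap (exact two-sided permutation p = 0.333). Only 6 of the 12 receptor genes chosen entered this sum, so it does not cover the whole receptor family. In OsC3H10OX replicate 1 the gene Os03g0297600 gave 68.3 of the 177 FPKM.

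Group A bZIP factors, the substrates of the kinases, showed the smallest differences of these lists. All 9 tested transcripts lay between -0.19 and 0.19 on the log2 scale, and none had an unadjusted p under 0.05. Os08g0472000, annotated as similar to the ABA-response factor TRAB1, had 6.48 and 7.02 FPKM in NT and 8.71 and 6.93 FPKM in OsC3H10OX (a difference of 0.19 on the log2 scale, adjusted p = 0.510, limma). Os02g0766700, annotated as AREB2-like, had a log2 fold change of -0.16, Os05g0437700 one of 0.09, and the AREB1-like transcripts of Os06g0211200 -0.08 and -0.19.

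Genes that make and break down ABA held larger differences. Os02g0703600, annotated as similar to ABA 8'-hydroxylase 1, an enzyme that inactivates ABA, had 4.87 and 5.28 FPKM in NT and 1.63 and 0.833 FPKM in OsC3H10OX. Both OsC3H10OX libraries were far below NT (log2 fold change -1.48 ± 0.193 SE). Its adjusted p was 0.0604 over transcripts and 0.0401 over genes (limma), so it fell in the gene-level test alone. This gene-level call did not hold with either NT library left out, where fewer of all genes passed too. It held with either OsC3H10OX library left out. The log2 fold change of the gene was -1.72 without OsC3H10OX replicate 1 and -1.24 without OsC3H10OX replicate 2. Each such fit leaves 1 library in a group, and the pathway genes called changed with the library left out.

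The other members of the breakdown list were Os09g0457100 (a difference of -0.44 on the log2 scale, adjusted p = 0.196) and Os08g0472800 (-0.01, adjusted p = 0.989). Among genes of ABA synthesis, the Viviparous-14 gene Os12g0617400, named for a cleavage enzyme of maize, had 0.981 and 1.35 FPKM in NT and 2.81 and 2.45 FPKM in OsC3H10OX (log2 fold change 0.74 ± 0.131 SE, adjusted p = 0.104, limma). The opposite was seen for Os12g0435200, annotated as a zeaxanthin cleavage oxygenase, with 2.15 and 2.34 FPKM in NT and 0.262 and 1.06 FPKM in OsC3H10OX (log2 fold change -1.003 ± 0.273 SE, adjusted p = 0.201, limma).

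The carotenoid oxygenase gene Os02g0704000 had 67.9 and 59.7 FPKM in NT and 79.5 and 116 FPKM in OsC3H10OX (a difference of 0.65 on the log2 scale, adjusted p = 0.237). Neither the dehydrogenase gene Os03g0810800 (-0.21) nor the zeaxanthin epoxidase-like gene Os04g0448900 (-0.13), the most abundant of the list at 80.2 to 151 FPKM, had an unadjusted p under 0.05.

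Genes that ABA and drought induce, which lie downstream of the kinases, held the largest differences of these lists. RAB16A (Os11g0454300), a dehydrin, had 1.74 and 2.59 FPKM in NT and 43.2 and 14.4 FPKM in OsC3H10OX. LEA3-1 (Os05g0542500, transcript Os05t0542500-02) had 1.82 and 1.87 FPKM in NT and 57.5 and 17.1 FPKM in OsC3H10OX. RAB16B (Os11g0454200) had 0.351 and 0.621 FPKM in NT and 6.80 and 3.24 FPKM in OsC3H10OX. All 3 were far higher in both OsC3H10OX libraries, and OsC3H10OX replicate 1 stood well above replicate 2.

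Their log2 fold changes were 3.08, 3.55 and 1.95 with adjusted p of 0.104, 0.0930 and 0.0853 (limma), so none passed. RAB16C (Os11g0454000) had 1.98 and 1.96 FPKM in NT and 3.33 and 1.33 FPKM in OsC3H10OX (log2 fold change 0.10). Several of these genes were picked by the study from these libraries, so they are not independent evidence of a direction. For several genes from its list the study also reports qRT-PCR, with patterns similar to the sequencing. Those values were not used here.

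**Figure D5:**
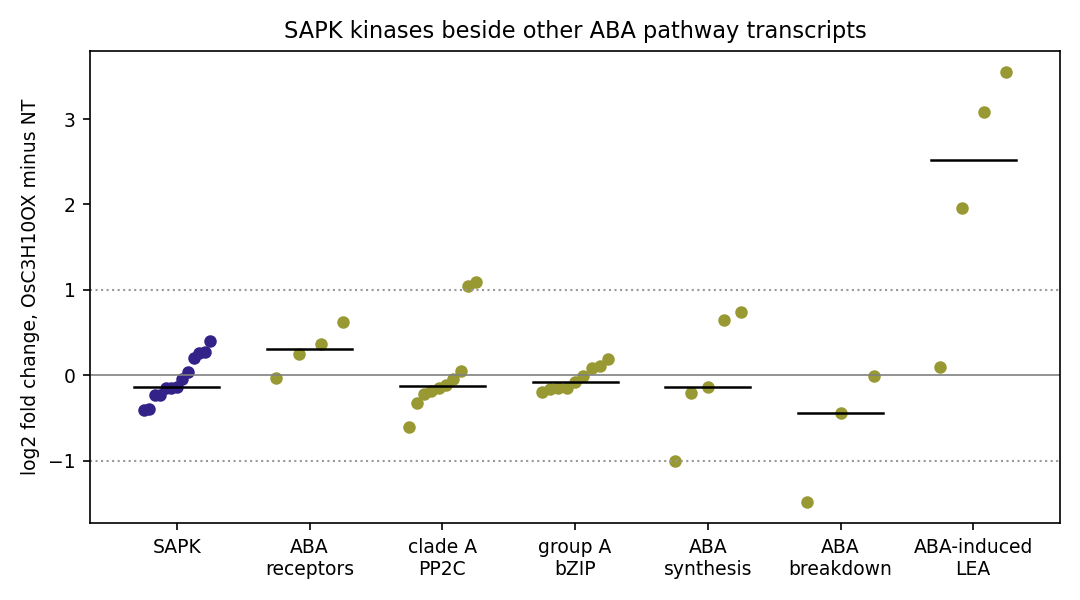
Log2 fold change (OsC3H10OX minus NT) of every tested transcript of the SAPK family and of 6 lists of ABA pathway genes. Each point is 1 transcript, sorted by value within its list, black lines are list medians and dotted lines mark a 2-fold change. The 13 SAPK points lie between -0.40 and 0.41, and the 3 highest points of the LEA list lie between 1.95 and 3.55.

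The related kinase families of rice offer a comparison. SnRK1 kinases, which respond to energy supply, had 6 tested transcripts of 3 genes, 0 called, and a median log2 fold change of 0.22. Os03g0289100, annotated as OSK3-like, had 13.6 and 12.4 FPKM in NT and 16.8 and 15.9 FPKM in OsC3H10OX (log2 fold change 0.33 ± 0.106 SE, adjusted p = 0.241, limma). Os08g0484600 had a log2 fold change of 0.18. The transcripts of Os05g0530500 ranged from -1.40 to 2.08, with NT replicate 2 apart from the other 3 libraries in how reads were split between them.

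SnRK3 kinases (CIPK) act with calcium-binding CBL proteins. They were taken as the 20 genes annotated as CBL-interacting, so members annotated otherwise are not covered. These gave 26 tested transcripts of 18 genes, with 0 called (1.49% of all). Of the 26, 5 were higher and 1 was lower at an unadjusted p under 0.05 (17.7% of all). Ignoring sign, their median log2 fold change was 0.44, beside 0.23 in the SAPK family and 0.17 for 21361 transcripts whose NT level lay in the range of the tested SAPK transcripts. Os01g0206700, annotated as CIPK20-like, had 4.65 and 5.55 FPKM in NT and 10.6 and 11.5 FPKM in OsC3H10OX for transcript Os01t0206700-01 (log2 fold change 0.98 ± 0.126 SE, adjusted p = 0.0578, limma). Os12g0113500 (CIPK14-like, 1.22), Os07g0637000 (CIPK21-like, 0.54) and Os03g0319400 (CIPK3-like, -0.45) also had unadjusted p under 0.05 for their first transcript. With FPKM summed per gene, Os01g0206700 stood at 0.86 (adjusted p = 0.143, limma). The most abundant, Os01g0292200, had a log2 fold change of 0.29 for its first transcript, -0.71 and 2.97 for its other tested transcripts, and 0.24 with FPKM summed. Its transcript Os01t0292200-03 had 23.1 FPKM in NT replicate 1 and 0.051 FPKM in NT replicate 2. Differences between the families were not tested.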

How the data were processed

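Total RNA of whole plants was sequenced single-end from TruSeq RNA (v2) libraries, a kit that does not mark strand, 2 libraries per group. The authors trimmed reads with Trimmomatic 0.32, used TopHat for mapping (IRGSP-1.0, RAP-DB annotation), and deposited FPKM per transcript and library. The FPKM tool is not given in the sources used here. The authors also deposited log2 values, found here to be quantile-normalized log2(FPKM + 1) (once sorted, the libraries are within 0.00178 of each other). Columns of the authors' own comparison, a deposited score and deposited p-values, were not used. Nothing in the sources used here states if both groups shared a growth or sequencing batch. The library names differ by group, however. In NT, the cultivar is followed by digits that may stand for a calendar year, whereas OsC3H10OX libraries are named by numeric codes only. Whether this marks separate batches was not tested, and batch and genotype cannot be told apart.

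Transcripts under 1 FPKM in more than 2 of the 4 libraries were set aside, and limma 3.58.1 in R 4.3.3 was run on the deposited log2 values of the remaining 30449 (mean-variance trend, Benjamini-Hochberg, called at adjusted p under 0.05). Gene-level fits used summed FPKM, log2(FPKM + 1) and quantile normalization over 25954 genes. Single values were compared with exact permutation tests, which cannot go below p = 0.333. No count model was used because the values are not counts. The step of low FPKM values gave the depth: 89.7% to 92.7% of 360 to 427 low values per library were whole fragments within 0.05, with a length correction of 155 nt. Fragment numbers are estimates from that step, and counting errors cover counting only. Scripts were tested on simulated data.

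SAPK subclasses are textbook assignments. Members and lists were chosen with earlier results of these data known. The text names every SAPK transcript and, from each list, called genes, the up to 4 genes with the smallest p and the highest gene. From the lists, 7 genes were not in the table and 2 were dropped because their annotation named another protein. Alternatives were no normalization, a pseudocount of 0.1, no filter, a filter of 5 FPKM, no trend, robust estimation, a replicate block and each library left out. With a library left out, its group's spread came from the other group.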

Additional observations from a re-analysis of the deposited data

How the results depend on the processing

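No SAPK transcript was called under any of the 11 alternatives, with a lowest adjusted p of 0.0895 (limma). Of 142 values of single SAPK transcripts under these alternatives, 138 kept their direction and their side of the threshold, and 4 changed sign, each when a library was left out. With 1 library left out, log2 fold changes ranged from -0.19 (without OsC3H10OX replicate 1) to 0.26 for SAPK1 Os03t0390200-02, which stood at -0.08 without NT replicate 1, from -0.51 to 0.060 (without OsC3H10OX replicate 1) for SAPK3 Os10t0564500-01, and from -0.45 to 0.15 (without OsC3H10OX replicate 2) for SAPK8 Os03t0764800-02. In these fits the family median ranged from -0.12 to -0.068, SAPK genes called from 0 to 2 and pathway transcripts called from 0 to 6. The subclass III difference was -0.11 on mean log2 values, and ranged from -1.49 to 2.35 percentage points with 1 library left out. The share of the most abundant transcript differed by -2.25 to 8.61 points in SAPK1, -8.31e-05 to 5.48e-05 points in SAPK4 and -0.20 to 12.2 points in SAPK8. The calls over all transcripts were less stable: 453, but 287 with a filter of 5 FPKM, 126 with no filter, and 0 without NT replicate 2 to 1029 without OsC3H10OX replicate 2. Replicate numbers are not said to pair the libraries. Replicate 1 deviations of the groups had a correlation of -0.0258, which cannot show whether libraries were handled in pairs. With a replicate block 0 SAPK transcripts, 0 SAPK genes, 0 pathway transcripts and 0 pathway genes were called (so that Os02g0703600 was not called). Of all transcripts, 25 were called with that block. Normalization did not shift the tested transcripts as a whole (median 0.0017, and -0.0097 without it), and the SAPK median was -0.14 with and without it. Abundant members moved more: without normalization SAPK2 stood at -0.23 instead of -0.15 and SAPK4 at -0.13 instead of -0.05. With 2 libraries per group, unadjusted differences of the size seen in the family remain uncalled, and the intervals given with them show what the data allow. The cause of these changes was not tested.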
